A study of Aspergillus luchuensis with 9 samples.

Results

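The comparison of a hepA deletion strain with its control in the white koji mould of shochu brewing (Aspergillus luchuensis mut. kawachii) rested on 6 of the 9 poly(A)-enriched RNA-seq libraries of the study: control replicates 1 to 3 and ΔhepA replicates 1 to 3. All are labelled with the strain mut. kawachii and differ by genotype, control or hepA. The remaining 3 libraries, of a ΔlaeA strain, entered the estimate of the spread between libraries, and their values are given beside some of the genes. The culture medium, the growth time, the make-up of the control strain and whether replicates were separate cultures are not given in the sources used here, so p-values measure the spread between these libraries, which may be technical. Members were all genes with at least 1 FPKM (fragments per kilobase of transcript, relative to all mapped fragments of the library) in at least 3 of the 6 libraries, 9665 of the 12941 genes listed. The reference gives a symbol to 2154 of the 9665, and the other genes are named by locus tag.

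HepA is related to heterochromatin protein 1 of animals and belongs to the chromodomain proteins, and it binds histone H3 methylated at lysine 9 and helps to keep that chromatin compact and silent. In filamentous fungi such chromatin is typical of centromeres, repeats and the regions near chromosome ends. Many gene clusters for secondary metabolites lie in regions of this kind, and in Aspergillus nidulans loss of HepA is known to raise the expression of some of them.

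The 6 libraries held FPKM sums of 1368960 to 1556090 and had 9374 to 9664 genes at 1 FPKM or more. Within a group the correlation of log2(FPKM + 1) across genes was 0.929 to 0.961 among the controls and 0.935 to 0.970 among the ΔhepA libraries. On the first principal component of the 6 libraries, which held 41.2% of the variance, the controls stood at -61.7, 1.44 and -23.1 and the ΔhepA libraries at 18.9, 42.9 and 21.6, so control replicate 2 lay nearest to the other group. On the second component, 24.4% of the variance, ΔhepA replicates 1 and 2 were the extremes (-43.1 and 40.6). The mitochondrial genome took 1.09% to 1.32% of the FPKM sum in the controls and 1.46%, 2.85% and 1.66% in the ΔhepA replicates. Genes of rRNA took 3.09% to 5.54% and 4.28%, 9.37% and 4.66%. ΔhepA replicate 2 was the highest library in both shares, and the part of these shares in the results that follow was not tested.

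Few genes passed the test. By limma on log2(FPKM + 1) with Benjamini-Hochberg adjustment, 35 of 9665 genes (0.362%) changed at an adjusted p under 0.05: 6 rose (0.0621%) and 29 fell (0.3%), each by at least 1.56 on the log2 scale. At an unadjusted p under 0.05 there were 1031 genes (10.7%). The median log2 difference of all tested genes, ΔhepA minus control, was -0.15. Median-ratio scaling divides each library by the median ratio of its genes to their geometric means, over genes above 0 in all 9 libraries. It moved the median log2 difference to 0.01 and called 9 genes, 1 higher and 8 lower (0.0931%), all 9 among the 35. Without scaling, the 3 ΔhepA values lay above all 3 control values for 5.44% of genes and below them for 14.6%. After median-ratio scaling the shares were 10.8% and 10.6%, so the excess of lower genes depended on the scaling. Quantile normalization gave 2 higher and 11 lower genes.

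**Figure D1:**
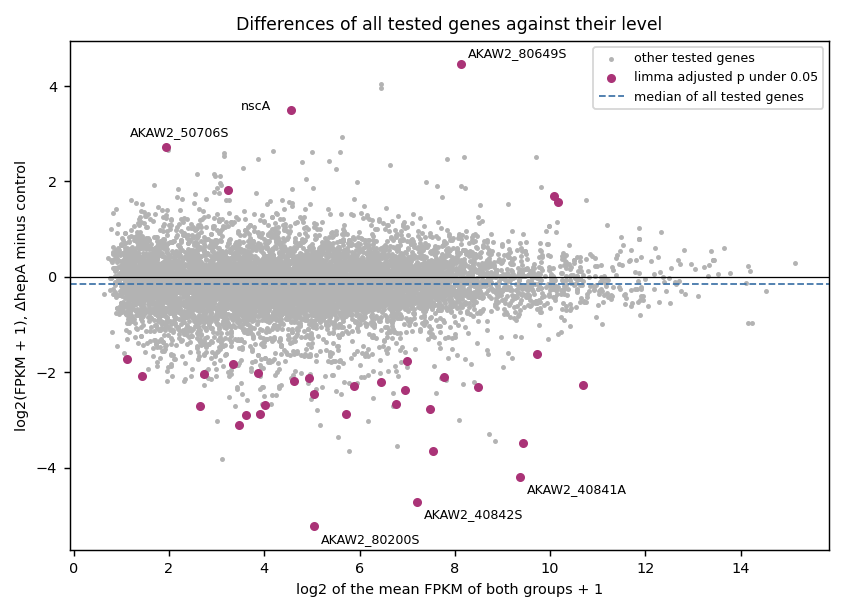
Difference between ΔhepA and control on the log2(FPKM + 1) scale for each tested gene (vertical axis) against its level, the log2 of the mean FPKM of both groups plus 1 (horizontal axis). The 35 called genes are the large points, 29 of them below 0, and the dashed line marks the median of all genes at -0.15.

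The genes that fell were well expressed in the control, with a median of 92.0 FPKM against 25.2 FPKM for all tested genes, and stood at a median of 10.5 FPKM in ΔhepA. The 6 genes that rose had a median of 14.6 FPKM in the control and 288.0 FPKM in ΔhepA. These levels follow in part from the selection. With 1 added to each FPKM, a large fall needs expression in the control and a large rise needs expression in ΔhepA. In all 35 genes the groups did not overlap, which the test favours by construction. Only 5 of the 35 have a symbol: nscA, SED2, GIT1_1, coaT and DCW1_2. In every fall except AKAW2_80200S, all ΔlaeA values also lay below all of the shared controls. How often this held over all tested genes was not counted.

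**Figure D2:**
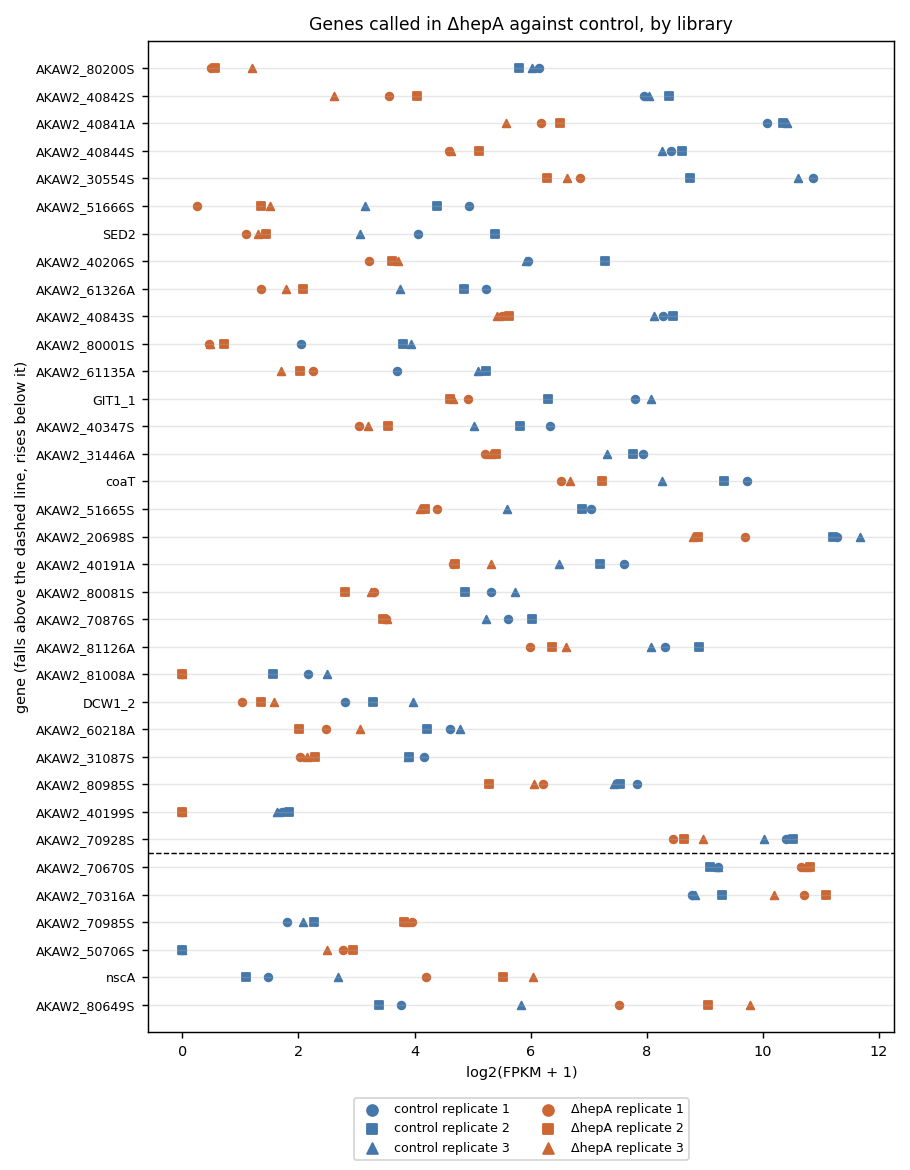
Level of each of the 35 called genes in each library as log2(FPKM + 1), with 1 row a gene; colour gives the group and the marker shape the replicate. The 29 genes above the dashed line fell and the 6 below it rose, and in every row the 3 control points and the 3 ΔhepA points do not overlap.

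The reference has no symbol hepA, so the deleted gene was not read out by name. The gene with the largest difference was AKAW2_80200S on chromosome 8 (589285 to 590334). It stood at 69.5, 54.6 and 64.3 FPKM in the controls, against 0.41, 0.48 and 1.31 FPKM in ΔhepA replicates 1 to 3 (log2 difference -5.23 ± 0.393 SE, limma adjusted p = 0.000197). In the ΔlaeA libraries it was at 71.7, 34.8 and 26.2 FPKM. It was thus close to 0 in the ΔhepA libraries and expressed in the other 6. Whether it was removed or was less expressed cannot be told apart from these values, and in bulk RNA fewer cells with a transcript and less of it per cell cannot be told apart either.

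A stretch of 4 adjacent genes on chromosome 4, AKAW2_40841A to AKAW2_40844S (2417341 to 2424135), fell together, by 2.77 to 4.72 on the log2 scale. AKAW2_40841A, among the more abundant transcripts of the control, went from 1077, 1303 and 1358 FPKM to 71.6, 90.1 and 46.9 FPKM (limma adjusted p = 0.000197). AKAW2_40842S went from 247, 334 and 262 FPKM to 10.8, 15.4 and 5.13 FPKM (adjusted p = 0.00044). The other pair kept more of their level: AKAW2_40843S at 42.1 to 48.5 FPKM against 278 to 350 FPKM, and AKAW2_40844S at 23.2 to 33.6 FPKM against 308 to 389 FPKM. To the left, AKAW2_40839S had 502 to 964 FPKM without the deletion and 585 to 935 FPKM with it. AKAW2_40840A, between it and the 4 genes, was intermediate, at 12.5 to 19.4 FPKM and 5.07 to 5.57 FPKM with no overlap, and did not pass the test (limma adjusted p = 0.22). On the right, AKAW2_40845A was at 2.09 FPKM or less in all 6 libraries and AKAW2_40846A overlapped between groups (log2 difference -0.12, and 0.05 after median-ratio scaling). In the ΔlaeA libraries, which were compared with the same controls, AKAW2_40841A was at 43.4, 52.7 and 79.7 FPKM and AKAW2_40842S at 3.60, 8.73 and 6.65 FPKM. Both deletion strains were thus low for these genes and the controls high. Together with AKAW2_80200S, the 4 genes passed the test whichever of the 6 libraries was left out and under 13 other settings (limma adjusted p from 0.000121 to 0.0288).

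Each of the other 30 calls was lost in at least 1 fit that left out a library. Such a fit rests on fewer libraries, so a call can be lost through lower power alone. Without ΔhepA replicate 2, and without ΔhepA replicate 3, 0 of the 30 were called (limma adjusted p 0.123 to 0.194 and 0.0643 to 0.185). Without control replicate 1 or without ΔhepA replicate 1, 2 of the 30 were called (up to 0.213 and 0.169), and without control replicate 2 or 3, 13 of the 30 (up to 0.0765 and 0.147). These limits hold for all genes called below.

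The largest of these other falls was that of AKAW2_30554S on chromosome 3 (1627458 to 1629169). It stood at 1860, 429 and 1551 FPKM in the controls and 114.0, 77.0 and 98.1 FPKM in ΔhepA (log2 difference -3.48 ± 0.47 SE, limma adjusted p = 0.022). Control replicate 2 was far below the other controls, and still above every ΔhepA library. In ΔlaeA the gene was at 101, 118 and 145 FPKM. AKAW2_20698S on chromosome 2, a short transcript of 418 bases, was the most abundant called gene in the control, at 2484, 2378 and 3285 FPKM against 823, 470 and 441 FPKM. AKAW2_70928S, at 1346, 1472 and 1039 FPKM against 349, 400 and 503 FPKM, had the smallest log2 difference among the falls (-1.62 ± 0.244 SE, limma adjusted p = 0.0341). AKAW2_30554S kept the call after median-ratio scaling (limma adjusted p = 0.0477), as did AKAW2_80081S and AKAW2_80985S on chromosome 8 (adjusted p = 0.0368 and 0.0477). AKAW2_80081S was at 39.0, 28.1 and 52.4 FPKM against 8.85, 5.98 and 8.55 FPKM. AKAW2_80985S was at 227, 185 and 173 FPKM against 73.0, 38.1 and 65.6 FPKM.

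Chromosome 4 held 9 of the 29 falls, with 995 of the 9665 tested genes. Besides the 4 neighbours, SED2 and AKAW2_40347S (79.5, 55.2 and 31.6 FPKM against 7.25, 10.7 and 8.13 FPKM), 3 of the 9 lay within AKAW2_40191A to AKAW2_40206S (477024 to 517728). There AKAW2_40191A was at 194, 145 and 88.7 FPKM against 24.5 to 38.7 FPKM, and AKAW2_40206S at 61.2, 155 and 59.5 FPKM against 8.34, 11.2 and 12.1 FPKM. AKAW2_40199S, at 2.30, 2.56 and 2.10 FPKM in the controls, was listed at 0 in the 3 ΔhepA libraries. Genes between them did not all differ: AKAW2_40201A stood at 48.2 to 101 FPKM and 58.8 to 93.4 FPKM. AKAW2_40204S and AKAW2_40205S next to AKAW2_40206S did not overlap between groups (386, 70.8 and 101 against 15.1, 30.0 and 19.5 FPKM, and 28.0, 33.6 and 15.5 against 8.05, 6.55 and 5.39 FPKM) but did not pass the test (limma adjusted p = 0.119 and 0.104).

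A pair of neighbours on chromosome 5 fell as well. AKAW2_51665S (5083327 to 5084374) stood at 131, 118 and 47.3 FPKM in the controls and 19.9, 17.2 and 16.2 FPKM in ΔhepA. AKAW2_51666S beside it was at 29.5, 19.9 and 7.82 FPKM against 0.19, 1.56 and 1.84 FPKM. Control replicate 3 was the lowest control for both. AKAW2_51663A and AKAW2_51668A on either side had log2 differences of -0.94 and 0.72, and neither passed the test (limma adjusted p = 0.266 and 0.495).

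Further falls without a symbol were found on chromosomes 3, 6, 7 and 8. In each gene given here the ΔlaeA values also lay below all controls. In ΔlaeA, AKAW2_61326A was at 2.14, 0.49 and 0.93 FPKM and AKAW2_31446A at 18.8, 40.6 and 56.7 FPKM. AKAW2_61326A stood at 36.6, 27.8 and 12.4 FPKM against 1.55, 3.22 and 2.46 FPKM, and AKAW2_61135A at 11.9, 36.4 and 33.3 FPKM against 3.74, 3.08 and 2.26 FPKM. AKAW2_31446A lay within a narrow range in ΔhepA, at 245, 217 and 159 FPKM against 36.2, 41.4 and 38.7 FPKM. AKAW2_81126A was at 318, 478 and 267 FPKM against 62.8, 82.0 and 96.4 FPKM. AKAW2_70876S was at 47.8, 64.1 and 36.4 FPKM against 10.3, 9.99 and 10.6 FPKM. In each of these 5 genes the lowest control was more than 2 times the highest ΔhepA library. AKAW2_60218A (17.6 to 26.4 against 3.02 to 7.31 FPKM) and AKAW2_31087S (13.8 to 17.0 against 3.10 to 3.87 FPKM) were lower in level. AKAW2_81008A, at 3.51, 1.95 and 4.63 FPKM in the controls, was listed at 0 in all 3 ΔhepA libraries. AKAW2_80001S, the outermost listed gene at one end of chromosome 8, was at 3.11, 13.0 and 14.3 FPKM against 0.38, 0.65 and 0.40 FPKM.

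Among genes with a symbol, 4 fell. SED2, named after a sedolisin, a peptidase that is secreted and cuts tripeptides from protein ends, stood at 15.7, 40.6 and 7.39 FPKM in the controls and 1.15, 1.72 and 1.46 FPKM in ΔhepA. GIT1_1, named after a yeast permease for glycerophosphoinositol, was at 222, 77.9 and 269 FPKM against 29.4, 23.4 and 24.2 FPKM. coaT, which carries the name of a propionyl-CoA:succinate CoA-transferase of Aspergillus, was at 846, 644 and 307 FPKM against 90.5, 148 and 101 FPKM. DCW1_2 carries the name of a mannosidase of the yeast cell wall and was at 6.0, 8.80 and 14.7 FPKM against 1.03, 1.57 and 1.99 FPKM (log2 difference -2.04 ± 0.368 SE, limma adjusted p = 0.0498). In each of the 4 the ΔhepA libraries lay close together and the spread was larger in the controls. In ΔlaeA, SED2 was at 1.94, 1.63 and 1.84 FPKM and GIT1_1 at 29.6, 17.2 and 38.1 FPKM. There coaT was at 144, 246 and 210 FPKM and DCW1_2 at 0.72, 0.81 and 0.68 FPKM. All 4 were thus below the shared controls in both deletion strains.

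The rises included nscA on chromosome 8, which in other fungi encodes the polyketide synthase for neosartoricin. It stood at 1.79, 1.14 and 5.44 FPKM in the controls and 17.3, 45.1 and 65.0 FPKM in ΔhepA (log2 difference 3.50 ± 0.585 SE, limma adjusted p = 0.0343). AKAW2_80649S beside it stood at 12.6, 9.46 and 56.0 FPKM against 184, 533 and 883 FPKM (log2 difference 4.47 ± 0.788 SE, adjusted p = 0.0447), the largest rise of all tested genes. The next pair along, nscC, named after a monooxygenase gene, and AKAW2_80651S, did not overlap between groups either and did not pass the test (adjusted p = 0.103 and 0.0751). In all 4 genes control replicate 3 was the highest control, and ΔhepA replicate 3 the highest and replicate 1 the lowest of the ΔhepA libraries. On one side followed nscR, the regulator gene named in this group, whose groups overlapped, with control values of 28.8 to 77.2 FPKM and ΔhepA values of 49.1 to 60.2 FPKM. On the other side AKAW2_80647S was at 20.4, 2.43 and 9.82 FPKM against 22.4, 18.1 and 194 FPKM, overlapping as deposited but not after median-ratio scaling (log2 difference 2.26, limma adjusted p = 0.414). In the ΔlaeA libraries, which share these controls in their own comparison, nscA was at 0.82, 3.60 and 0.90 FPKM.

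A longer stretch of higher genes lay on chromosome 5; it was singled out after its values were seen, starting from AKAW2_50706S, the only one of its genes that passed the test. AKAW2_50706S (2153832 to 2154185) was listed at 0 in the 3 controls and stood at 5.78, 6.63 and 4.60 FPKM in ΔhepA (limma adjusted p = 0.0498). From AKAW2_50705A to AKAW2_50714S (2151567 to 2190973, 39.4 kb), 9 of 10 genes had all 3 ΔhepA values above all 3 control values, also after median-ratio scaling, where 5.44% and 10.8% of all tested genes did. AKAW2_50707S, an 11.9 kb gene model, was at 0.93, 1.49 and 1.34 FPKM against 26.7, 11.9 and 5.18 FPKM (log2 difference 2.54, limma adjusted p = 0.0703). AKAW2_50712A was at 1.71, 4.06 and 5.39 FPKM against 53.6, 24.5 and 13.97 FPKM (2.63, adjusted p = 0.0707). AKAW2_50709S was at 34.6, 78.1 and 80.8 FPKM against 686, 264 and 215 FPKM (2.47, adjusted p = 0.0707).

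The chromosome 5 stretch held genes of low and of high level. AKAW2_50713S, the most abundant of the 10, was at 84.8, 364 and 303 FPKM against 2406, 1304 and 563 FPKM (log2 difference 2.51, limma adjusted p = 0.221), and AKAW2_50705A, among the least abundant, was at 0.39, 1.31 and 1.84 FPKM against 28.5, 10.0 and 5.09 FPKM (2.59, adjusted p = 0.102). AKAW2_50708A and AKAW2_50710A had log2 differences of 2.51 and 2.61, and AKAW2_50714S of 1.99. The exception was AKAW2_50711S in the middle of the stretch, at 46.1, 24.6 and 33.5 FPKM against 38.2, 29.4 and 31.6 FPKM (-0.03, and 0.14 after median-ratio scaling). ΔhepA replicate 1 was the highest ΔhepA library in 8 of the 10 genes, whereas in the 4 nsc genes it was the lowest. Control replicate 1 was the lowest or joint lowest control in 9 of the 10. On the left the flanking AKAW2_50704S overlapped between groups (20.2 to 25.8 and 21.4 to 45.4 FPKM) as deposited, but it and AKAW2_50703S lay above all controls after median-ratio scaling (log2 differences 0.58 and 0.69), so the left edge depended on the scaling, and on the right AKAW2_50715A was at 0.37 FPKM or less in all 6 libraries. The reference gives none of these 10 genes a symbol. In the ΔlaeA libraries the mean of AKAW2_50709S was 71.5 FPKM and that of AKAW2_50713S 407 FPKM.

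**Figure D3:**
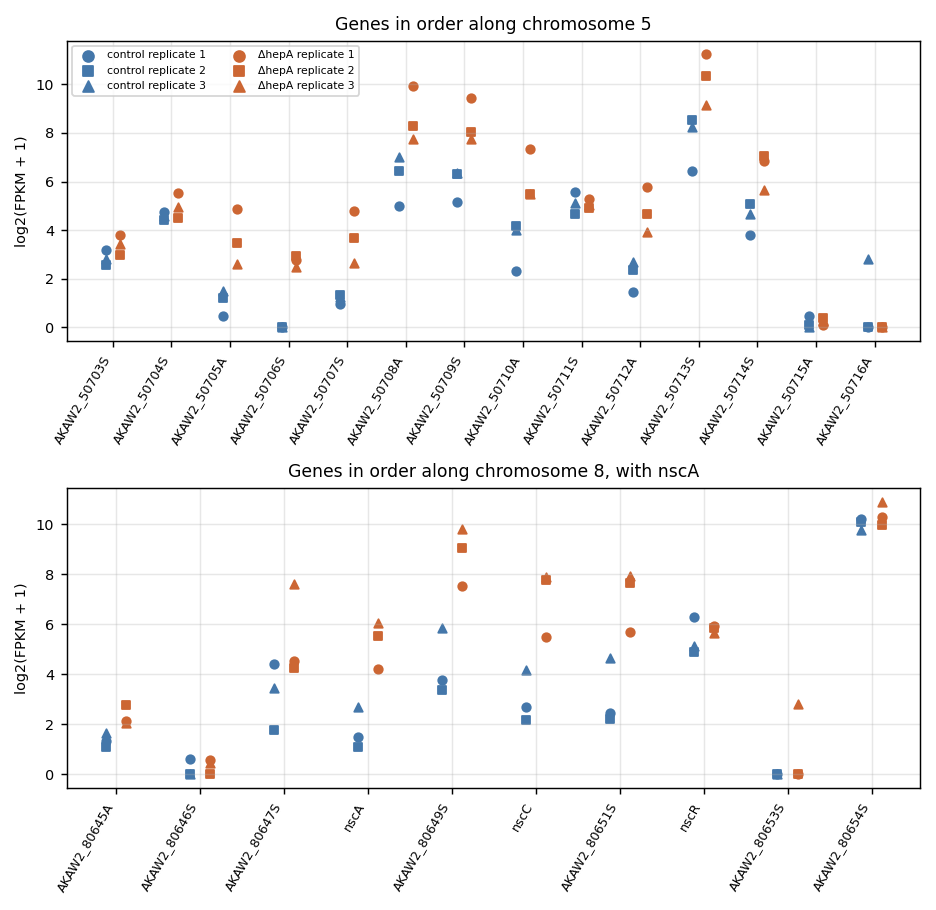
Levels as log2(FPKM + 1) of neighbouring genes in chromosomal order, on chromosome 5 (upper panel) and around nscA on chromosome 8 (lower panel), with 1 point a library. From AKAW2_50705A to AKAW2_50714S the ΔhepA points lie above the control points in 9 of 10 genes, with replicate 1 highest in 8; from nscA to AKAW2_80651S they lie above in 4 of 4 genes, with replicate 3 highest.

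The other 3 genes that rose were single genes on chromosome 7. AKAW2_70670S, an abundant transcript, stood at 601, 542 and 598 FPKM against 1611, 1791 and 1739 FPKM. AKAW2_70316A stood at 436, 628 and 452 FPKM against 1677, 2185 and 1165 FPKM. AKAW2_70985S was at 2.50, 3.84 and 3.23 FPKM against 14.5, 13.1 and 13.5 FPKM, and was the only rise called after median-ratio scaling (limma adjusted p = 0.0477).

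Runs of at least 4 consecutive tested genes whose groups did not overlap, a measure chosen after the values were seen, numbered 4 with ΔhepA above and 15 with ΔhepA below, beside 5.44% and 14.6% of single genes. After median-ratio scaling the single-gene shares were 10.8% and 10.6%. Every gene still did not overlap in 4 of the 4 upper and 6 of the 15 lower runs. Runs were not sought anew after that scaling, which raised ΔhepA relative to the controls, so their number under it is not known. The 4 upper runs included the chromosome 5 and nsc genes. The others were AKAW2_31315S to AKAW2_31319S on chromosome 3 (log2 differences 1.47 to 2.62) and the siderophore genes sidI and sidC with AKAW2_51923S and AKAW2_51924S on chromosome 5 (0.35 to 1.97). In neither did a gene pass the test (limma adjusted p 0.208 to 0.536 and 0.162 to 0.743). In the chromosome 3 run ΔhepA replicate 1 lay closest to the controls, as for AKAW2_31317A (6.49 FPKM against 4.37 to 5.77 FPKM). The ΔlaeA means of that run were higher still, at 25.2 to 241 FPKM. The longest lower run had 8 genes on chromosome 7, AKAW2_70546S to AKAW2_70553S (1466386 to 1584737), and included AMY1 and gliI; 6 of the 8 did not overlap after median-ratio scaling. None of its genes passed the test, with limma adjusted p from 0.122 to 0.471. On chromosome 6 a run held URG1_1 and FUR1_1, named after yeast genes of uracil use. There control replicate 1 stood far above the other controls. URG1_1 was at 1221, 69.2 and 218 FPKM against 45.0, 15.2 and 47.3 FPKM (limma adjusted p = 0.183). AKAW2_61277S between them was at 1894, 101 and 399 FPKM against 52.6, 21.3 and 67.8 FPKM (adjusted p = 0.145).

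Few genes switched between silence and expression. Of 2099 genes under 0.5 FPKM in all 3 controls, 7 were at 1 FPKM or more in all 3 ΔhepA libraries, and of 2049 genes under 0.5 FPKM in all 3 ΔhepA libraries, 9 were at 1 FPKM or more in all 3 controls. With 2 FPKM as the lower bound for the expressed group there were 2 and 3. AKAW2_60122A on chromosome 6 was listed at 0 in every control, against 6.30, 2.42 and 8.93 FPKM in ΔhepA (limma adjusted p = 0.0895). AKAW2_50495A on chromosome 5 was at 19.3, 21.2 and 5.37 FPKM in the controls and listed at 0 in ΔhepA (adjusted p = 0.0693). AKAW2_50687S was at 3.15, 7.43 and 5.57 FPKM against 0.32, 0.37 and 0.34 FPKM (adjusted p = 0.0761). AKAW2_50706S and AKAW2_40199S, both called, were the other 2. AKAW2_50495A, AKAW2_60122A and AKAW2_50706S are short, at 231, 306 and 354 bases. In genes this short a few fragments can give several FPKM, and read depth is unknown, so a listed 0 may reflect few fragments.

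Near the chromosome ends no gene rose in ΔhepA by the limma test. Only 6 of the 9665 tested genes (0.0621%) rose anywhere, too few for this absence to be informative. Distance was counted from the outermost listed gene of each of the 8 chromosomes. Within 25 kb, 45 of 155 genes were tested; 0 rose, 1 fell (AKAW2_80001S), 7 had an unadjusted p under 0.05 and 21 were higher, 46.7% against 36.7% of all tested genes. Their median log2 difference was -0.09, and 0.06 after median-ratio scaling. From 25 to 50 kb, 26 of 77 tested genes were higher (33.8%; median -0.16, and -0.04 after median-ratio scaling). From 50 to 100 kb, 92 of 196 tested genes were higher (46.9%; median -0.02, and 0.13 after median-ratio scaling) and GIT1_1 fell. Beyond 400 kb the share higher was 35.8% (median -0.16). The share of all genes at 1 FPKM or more within 25 kb was 27.7% to 29.7% in the controls and 27.7% to 30.3% in ΔhepA, so the ranges overlapped. Of the 35 called genes, 0 of the 6 rises and 2 of the 29 falls (6.9%) lay within 100 kb of an end, where 3.29% of all tested genes lay. By chromosome the median difference ran from -0.17 to -0.12 on the nuclear chromosomes. Chromosome 1 had no called gene, where 0.362% of all tested genes were called. Of its 1708 tested genes 161 had an unadjusted p under 0.05, where 10.7% of all tested genes did.

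**Figure D4:**
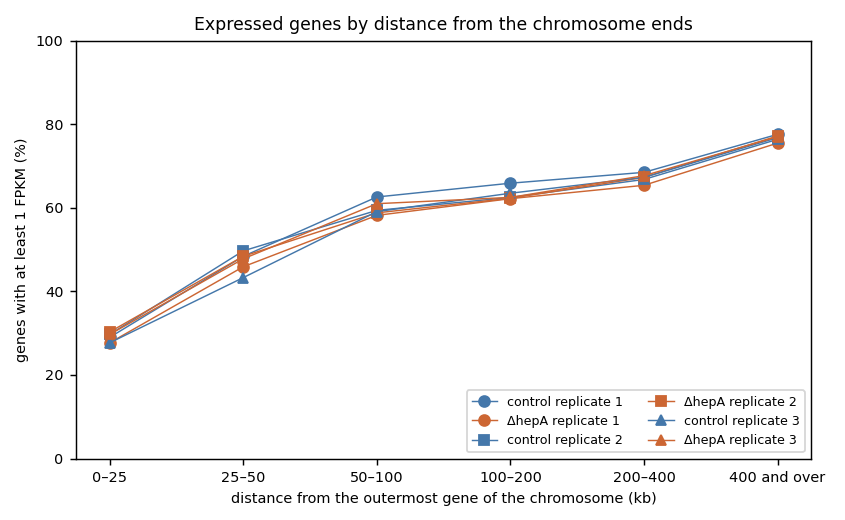
Share of all listed nuclear genes with at least 1 FPKM (vertical axis, percent) by distance from the outermost gene of the chromosome in kb (horizontal axis), with 1 line a library. The share climbs from 27.7% to 30.3% within 25 kb to over 75% beyond 400 kb, and the lines of both groups run together.

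Genes of known function were grouped into 18 lists of symbols; they are described by counts and medians, with no test of a list, beside a median of -0.15 and 6117 of 9665 genes lower over all genes tested, of which 10.7% had an unadjusted p under 0.05. Leaving out 1 library moved that median to between -0.21 and -0.05, so a list median without a library is given beside the median of all genes without it. SFC1, ICL1 and acuF are on 2 of the lists. In chromatin regulators and histone-modifying enzymes, 47 of 51 genes were lower (median -0.34, and -0.16 with 31 of 51 lower after median-ratio scaling) and 0 passed the limma test, 3 at an unadjusted p under 0.05. The median was -0.04 without ΔhepA replicate 2, where that of all genes was -0.05. The velvet regulator gene veA stood at 33.3, 37.6 and 32.4 FPKM against 23.2, 10.95 and 17.9 FPKM (limma adjusted p = 0.339). SWD3, a subunit gene of the histone H3 lysine 4 methyltransferase complex, was at 65.6, 102 and 95.7 FPKM against 129, 197 and 132 FPKM (adjusted p = 0.606), and hir3, a histone chaperone gene, at 36.6, 25.5 and 29.7 FPKM against 18.4, 17.1 and 18.5 FPKM (adjusted p = 0.352). Histone genes had a median of -0.20 over 7 genes, -0.02 after median-ratio scaling and 0.02 without ΔhepA replicate 2 (all genes -0.05). Of the 7, 0 were called by limma and 0 had an unadjusted p under 0.05.

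Named secondary metabolite genes were spread widely. Of 28 matched, 17 were tested, 11 were higher (median 0.34, and 0.48 after median-ratio scaling) and 1 rose, nscA. Without control replicate 1 the median was 0.22 (all genes -0.10). Genes at the other end were encD, of the endocrocin cluster in Aspergillus fumigatus, at 27.3, 2.02 and 4.12 FPKM against 0.47, 1.35 and 1.24 FPKM (limma adjusted p = 0.338), and gliI, of the gliotoxin cluster, at 8.43, 3.45 and 3.88 FPKM against 0.56, 1.73 and 0.59 FPKM (adjusted p = 0.164). Of 9 iron and siderophore genes 6 were higher, and 9 after median-ratio scaling (median 0.16 and 0.31), with 0 called by limma and 1 at an unadjusted p under 0.05. Leaving out 1 library gave a median of 0.09 to 0.10 for the iron list without control replicate 1, ΔhepA replicate 1 or ΔhepA replicate 3, and of 0.26 without control replicate 2 or ΔhepA replicate 2. In the same order, the medians of all genes were -0.10, -0.21, -0.21, -0.20 and -0.05. sidI, an enzyme gene of extracellular siderophore synthesis, was at 25.2, 53.8 and 23.9 FPKM against 88.4, 74.6 and 77.5 FPKM (limma adjusted p = 0.325).

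**Figure D5:**
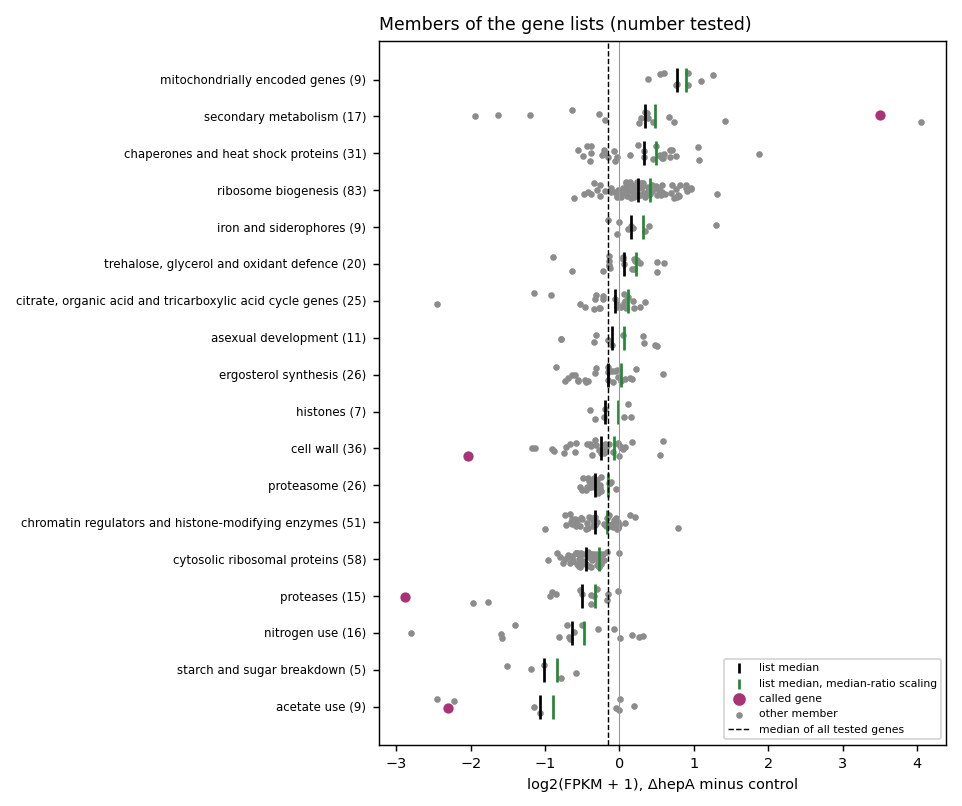
Log2 difference, ΔhepA minus control, of each tested member of the 18 gene lists (1 point a gene), ordered by the list median. Black ticks are medians as deposited, green ticks medians after median-ratio scaling, and the dashed line is the median of all genes at -0.15; the large points are the called genes, of which there are 4 (nscA, SED2, coaT and DCW1_2).

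Of the lists of nutrient use, those of starch and sugar breakdown, acetate use, proteases and nitrogen use held lower medians than all genes. That of citrate, organic acids and the tricarboxylic acid cycle did not. In starch and sugar breakdown 5 of 5 genes were lower under both scalings (median -1.02, and -0.84 after median-ratio scaling). As deposited, 4 of 5 had all ΔhepA values below all controls (14.6% of all genes). Of the 5, 0 passed the limma test and 3 had an unadjusted p under 0.05. AMY1, an alpha-amylase gene, was at 1306, 1192 and 1022 FPKM against 551, 529 and 656 FPKM (limma adjusted p = 0.332). agdC, named after an alpha-glucosidase gene, was at 17.8, 10.2 and 7.01 FPKM against 2.52, 3.18 and 3.87 FPKM (adjusted p = 0.127). aglA, named after an alpha-galactosidase gene, was at 8.51, 3.91 and 10.1 FPKM against 1.79, 2.98 and 2.95 FPKM (adjusted p = 0.392).

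In acetate use 6 of 9 genes were lower (5 of 9 after median-ratio scaling; median -1.06 and -0.90), and coaT fell. SFC1, a mitochondrial succinate-fumarate carrier gene needed for growth on acetate in yeast, was at 21.7, 26.0 and 7.89 FPKM against 0.73, 4.19 and 2.7 FPKM (limma adjusted p = 0.105). ACS1, for acetyl-CoA synthetase, was at 177, 80.1 and 50.7 FPKM against 21.1, 16.7 and 17.6 FPKM (adjusted p = 0.0608). facB, the regulator of acetate use genes in Aspergillus, was at 47.0, 29.1 and 26.4 FPKM against 17.6, 15.2 and 13.3 FPKM (adjusted p = 0.267). The 25 genes of citrate, organic acids and the tricarboxylic acid cycle had a median of -0.06, and 0.11 after median-ratio scaling. Without control replicate 2 it was 0.02 (all genes -0.20). Of the 25, 0 were called by limma and 3 had an unadjusted p under 0.05. YHM2, the mitochondrial citrate carrier gene, was at 660, 383 and 555 FPKM against 255, 248 and 329 FPKM (adjusted p = 0.22).

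In proteases 15 of 15 genes were lower, and 13 of 15 after median-ratio scaling (median -0.50 and -0.33), and 1 fell, SED2. Without control replicate 1 the median was -0.26 (all genes -0.10), without control replicate 2 it was -0.84 (all genes -0.20) and without ΔhepA replicate 2 it was -0.28 (all genes -0.05). PEP1, for the aspartic protease aspergillopepsin, was at 284, 66.2 and 123 FPKM against 44.9, 26.6 and 30.7 FPKM (limma adjusted p = 0.268). Nitrogen use genes were lower in 12 of 16 (median -0.63, and -0.48 after median-ratio scaling), with 0 called by limma and 5 at an unadjusted p under 0.05. AMT1, an ammonium transporter gene, was at 104, 6.24 and 77.9 FPKM against 5.09, 2.93 and 6.4 FPKM, so control replicate 2 fell within the ΔhepA range (adjusted p = 0.22). GAP1, a general amino acid permease gene, was at 109, 28.4 and 57.7 FPKM against 20.7, 11.5 and 24.9 FPKM (adjusted p = 0.291). DAL2, an allantoicase gene of purine breakdown, was at 910, 731 and 848 FPKM against 275, 206 and 362 FPKM (adjusted p = 0.0958). The median of the nitrogen list was -0.08 without control replicate 1 (all genes -0.10), -1.002 without control replicate 2 (all genes -0.20) and -0.42 without ΔhepA replicate 2 (all genes -0.05).

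Translation genes split in direction. Cytosolic ribosomal protein genes were lower in 58 of 58 (median -0.45) and in 56 of 58 after median-ratio scaling (-0.27). As deposited, the ΔhepA values lay below every control in 34 of the 58 (58.6%), against 14.6% of all genes. After median-ratio scaling, where the share of all genes was 10.6%, the list was not counted in this way. By limma 0 of the 58 passed the test, 17 at an unadjusted p under 0.05 (background 10.7% of all genes). RPL39 was at 24993, 24629 and 26198 FPKM against 16987, 8259 and 15723 FPKM (limma adjusted p = 0.505). RPS16 was at 361, 518 and 518 FPKM against 282, 241 and 289 FPKM (adjusted p = 0.323). Ribosome biogenesis genes were higher in 67 of 83 (median 0.25), and in 74 of 83 after median-ratio scaling (0.42), with 0 called by limma and 5 at an unadjusted p under 0.05. rrp36, an rRNA processing gene, was at 147, 212 and 233 FPKM against 621, 249 and 350 FPKM (adjusted p = 0.344), and nop9 at 44.7, 77.4 and 75.8 FPKM against 174, 93.7 and 120 FPKM (adjusted p = 0.291). ΔhepA replicate 1 was the highest library in both genes, and without it the list median was -0.09 (all genes -0.21). Without control replicate 1 the list median was 0.002 (all genes -0.10). Proteasome genes were lower in 26 of 26, and in 22 of 26 after median-ratio scaling (median -0.33 and -0.15), with 0 called by limma and 0 at an unadjusted p under 0.05. Without control replicate 1 the proteasome median was -0.17 with 21 of 26 lower (all genes -0.10), and without control replicate 2 it was -0.52 (all genes -0.20). RPT6, an ATPase subunit gene, was at 680, 440 and 531 FPKM against 399, 342 and 410 FPKM (adjusted p = 0.472).

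Chaperones and heat shock proteins were higher in 18 of 31 genes, and in 21 of 31 after median-ratio scaling (median 0.33 and 0.50), with 0 called by limma and 4 at an unadjusted p under 0.05. Without control replicate 2 the median was 0.19 (all genes -0.20). HSP98, for a disaggregase that resolves protein aggregates, was at 295, 377 and 421 FPKM against 2187, 896 and 1206 FPKM (limma adjusted p = 0.0829, and 0.0597 after median-ratio scaling). HSP30 was at 491, 729 and 687 FPKM against 1925, 1044 and 1140 FPKM (adjusted p = 0.377), and fes1, for a nucleotide exchange factor of Hsp70, at 69.4, 61.7 and 92.8 FPKM against 240, 97.6 and 158 FPKM (adjusted p = 0.428). ΔhepA replicate 1 was the highest library in all 3 genes and the groups did not overlap. Over the list as deposited, all ΔhepA values lay above all controls in 5 of 31 genes (16.1%) and below them in 3 (9.68%). The shares of all tested genes were 5.44% and 14.6%. All 9 tested mitochondrially encoded genes were higher (median 0.77, and 0.90 after median-ratio scaling), with 0 called by limma and 0 at an unadjusted p under 0.05. Without control replicate 3 the median was 0.59 with 8 of 9 higher (all genes -0.16). Without ΔhepA replicate 2 it was 0.60 with 8 of 9 higher (all genes -0.05). The gene cox2, for a subunit of cytochrome c oxidase, was at 5.17, 14.2 and 2.23 FPKM against 7.57, 19.1 and 11.1 FPKM, and the groups overlapped. As deposited, all ΔhepA values lay above all controls in 3 of the 9 genes (33.3%), against 5.44% of all genes. After median-ratio scaling, where the share of all genes was 10.8%, the list was not counted in this way. Among the 3 was nad1, at 0.77, 1.73 and 3.64 FPKM against 4.22, 6.74 and 4.47 FPKM (limma adjusted p = 0.483).

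Cell wall genes were lower in 29 of 36 (median -0.25, and -0.08 after median-ratio scaling) and 1 fell, DCW1_2. Without ΔhepA replicate 1 the median was -0.40 with 34 of 36 lower (all genes -0.21), and without ΔhepA replicate 2 it was -0.09 with 23 of 36 lower (all genes -0.05). GAS1_4, of the family of cell wall glucanosyltransferases, was at 405, 370 and 501 FPKM against 285, 144 and 156 FPKM (limma adjusted p = 0.158). Ergosterol synthesis had a median of -0.16 over 26 genes (0.02 after median-ratio scaling), asexual development -0.10 over 11 (0.06) and trehalose, glycerol and oxidant defence 0.06 over 20 (0.22), with 0 called by limma in each and 1, 1 and 0 at an unadjusted p under 0.05. Leaving out 1 library gave medians of -0.34 to -0.06 for ergosterol synthesis, -0.26 to 0.27 for asexual development and -0.004 to 0.18 for the trehalose list. The lowest was found without ΔhepA replicate 1 for the first pair and without ΔhepA replicate 3 for the trehalose list, and the highest without ΔhepA replicate 2 for all 3. The median of all genes was -0.21 without ΔhepA replicate 1, -0.05 without replicate 2 and -0.21 without replicate 3. Of the genes with a symbol and large differences without overlap not yet named, ubc2 is of the ubiquitin-conjugating family (12.3, 7.80 and 9.26 against 3.08, 0 and 1.63 FPKM, limma adjusted p = 0.333), and spt4 is a transcription elongation factor gene (34.0, 30.9 and 57.5 against 113, 73.4 and 114 FPKM, adjusted p = 0.155). ESF2, of ribosome biogenesis in yeast, was at 57.8, 81.7 and 95.8 FPKM against 273, 152 and 172 FPKM (adjusted p = 0.143). EFG1 stood at 61.2, 120 and 92.5 FPKM against 294, 158 and 195 FPKM (adjusted p = 0.273).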

How the data were processed

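The deposited values are gene-level FPKM that the authors made with RSEM, per the name of the deposited table, with 1 column a library. Among the tools, the submitters' processing notes list RSEM 1.3.1 and the aligner STAR 2.7.9a, together with cutadapt 3.7 and Trimmomatic 0.39. For the genome build, the sources used here give none. Coordinates and symbols are those of the RefSeq table of AkawachiiIFO4308_assembly01, joined by locus tag; all 12941 identifiers matched. FPKM is relative to each library's own total, so abundant transcripts can shift all others, and read depth is unknown.

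The test took in genes that reached 1 FPKM in 3 or more of the 6 control and ΔhepA libraries. log2(FPKM + 1) was fitted with limma 3.58.1 (R 4.3.3) as 1 mean per group across the 9 libraries, which leaves 6 residual degrees of freedom, with eBayes and a mean trend; p-values are two-sided, adjusted by Benjamini-Hochberg over all tested genes, with a threshold of 0.05. Differences on this scale understate changes of low genes. Members and gene lists were chosen with earlier results of these data known, and the lists were trimmed and extended after the reference's symbols were seen. Genes were named by a fixed rule: all called genes, the 8 largest differences each way among genes with a symbol, no overlap and a higher group mean of at least 5 FPKM, the leading members of each list, runs of called genes with their neighbours, and genes that switched between under 0.5 and at least 2 FPKM; other genes were named after their values were seen. Alternatives changed the pseudocount, filter, scaling, libraries, trend and block. Other tools were Python 3.11.15, pandas 2.3.3 and matplotlib 3.10.9.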

Additional observations from a re-analysis of the deposited data

How the results depend on the processing

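The count of 35 called genes was 17 with a pseudocount of 0.1, 14 with no filter on low values, 9 with median-ratio scaling, 13 with quantile normalization and 19 in a fit on the 6 libraries alone. It was 39 with a pseudocount of 5, 30 with a mean of at least 5 FPKM, 35 on the TPM scale (33 of them shared) and 28 with no mean trend. Leaving out 1 library gave 5 to 64 genes, with 64 without control replicate 2, of which 18 were among the 35. Of alternatives chosen after seeing the data, leaving out the 3 libraries that lay apart gave 6 genes, removing rRNA, tRNA and mitochondrial genes 33, and median-ratio scaling of the 6 libraries alone 9. The causes were not tested. With the replicate number as a block 6 genes were called. Same-numbered control and ΔhepA libraries did not deviate together (correlations of -0.123, 0.166 and 0.0661), and not every library correlated best with its own number, so the numbers were not taken as pairs. Of 1984 checks over 105 named genes, 365 lost the call, 6 gained it and 19 changed direction. The 19 were in 5 genes that were not called. AKAW2_50711S was at 0.137 with median-ratio scaling (9 and 6 libraries), 0.161 with quantile normalization, 0.019 on the TPM scale, 0.004 with rRNA, tRNA and mitochondrial genes removed and 0.045 without the 3 libraries that lay apart, and AKAW2_40846A at 0.052 with median-ratio scaling (9 and 6 libraries) and 0.113 with quantile normalization. AKAW2_40839S was at -0.006 without the 3 libraries that lay apart. With 1 library left out, the log2 difference ran from -0.251 to 0.188 for AKAW2_50711S, -0.469 to 0.427 for AKAW2_40846A, -0.126 to 0.343 for AKAW2_40839S, -0.001 to 0.523 for AKAW2_40201A and -0.03 to 0.529 for acuF.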
